A study of Mus musculus with 6 samples.

Results

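The 10 genes described here encode galectins, S100 proteins, annexins and 2 cytoskeleton-linked proteins: Lgals1, Lgals3, S100a4, S100a6, S100a10, S100a11, Anxa1, Anxa2, Vim and Crip1. They were selected on their RPKM (reads scaled by gene length and library total) in these same libraries, by symbol, and all 10 were found among the 14608 genes of the deposited tables. RNA was sequenced from 6 mouse libraries of splenic regulatory T (Treg) cells, a CD4 lineage that keeps other immune cells in check, sorted as CD4+YFP+ cells, with 2 libraries in each of 3 genotypes. The genotypes were wild type (WT), heterozygous for a Cdc42 knockout (Cdc42+/-) and homozygous for it (Cdc42-/-), where Cdc42 is a small GTPase that organises the actin cytoskeleton and cell polarity. YFP was the sorting marker in every group. The labels name neither the gene that drives YFP nor a Cre line, and age, sex and treatment are not given in the sources used here.

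Galectins are lectins that bind galactose-containing sugars on cell surfaces and in the cytosol, and galectin-1 is known as a product of Treg cells. S100 proteins are small EF-hand calcium sensors that work as dimers and bind other proteins, among them annexins, which attach to membrane phospholipids in the presence of calcium. Vimentin is the main intermediate filament protein of lymphocytes, and Crip1 is a small LIM-domain protein. Genes of this kind are generally known to be more active in activated and memory T cells than in naive T cells.

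The libraries held between 8556576 and 17796100 reads in genes. The targeted gene, Cdc42, had 166 and 161 in WT, 164 and 156 in Cdc42+/-, and 122 and 173 RPKM in Cdc42-/-, so its level did not separate the genotypes. Totals per gene cannot show which part of the gene was read, and genotypes are given as labelled. Foxp3, the defining Treg transcription factor, was at 103 to 131 RPKM in 5 libraries and at 58.4 RPKM in Cdc42-/- replicate 2. That library stood apart in 18 myeloid marker genes, whose summed level was 1667 RPKM there and 65.9 to 95.7 RPKM in the other 5 libraries. Of the 18 markers, 17 were above 5 RPKM in Cdc42-/- replicate 2 and 3 to 5 in the other libraries, while C1qb and C1qc were at 0 in WT replicate 1, C1qc in WT replicate 2 and C1qb in Cdc42-/- replicate 1. The 10 genes are therefore described with Cdc42-/- replicate 1 on its own as well, and each count of called genes in the fit made here also without replicate 2. Without replicate 2, Cdc42-/- is 1 library, so its own spread is not in the standard errors (SE) and calls of that fit. Erythroid markers summed to 4.45 and 24.8 RPKM in Cdc42-/- and at most 1.34 RPKM elsewhere. Dendritic cell markers summed to 2.33 and 7.21 RPKM in Cdc42-/- and at most 1.51 RPKM elsewhere, and B cell markers to between 11.05 and 22.1 RPKM. In Cdc42-/- replicate 1, 3 of 5 dendritic, 1 of 2 NK cell and 2 of 2 CD8 T cell markers were above all WT and Cdc42+/- libraries. Below all of them were 4 of 6 B cell markers, 1 of 2 NK cell markers and 0 dendritic or CD8 T cell markers. Xist, which the inactive X chromosome expresses, was at 0.199 and 1.13 in WT, 99.3 and 93.3 in Cdc42+/-, and 87.4 and 21.2 RPKM in Cdc42-/-. The Y-linked Ddx3y was at 37.7 and 42.4 in WT and 27.5 RPKM in Cdc42-/- replicate 2, and it did not exceed 0.126 RPKM elsewhere. Cdc42-/- replicate 2 thus held both Xist and Ddx3y reads, and whether its RNA came from 1 mouse was not tested. Genotype and this split therefore cannot be told apart between WT and the Cdc42+/- libraries, nor between WT and Cdc42-/- replicate 1, which holds for every comparison of these with WT given here. Cdc42-/- replicate 1 and both Cdc42+/- libraries were alike in it.

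The summed level of the 10 genes was 982 and 1130 in WT, 1690 and 1624 in Cdc42+/-, and 3154 and 4090 RPKM in Cdc42-/-. The sums did not overlap between genotypes, and gene by gene the same order without overlap held for Lgals1, Lgals3, S100a6, S100a10, Anxa2, Vim and Crip1. Over all genes tested, 26.2% had both Cdc42+/- libraries above both WT libraries. Both Cdc42-/- libraries were above both Cdc42+/- libraries in 28.6%, and the share with both steps was not counted. The 10 genes were chosen on these values, so nothing is read from this order. These sums came from 0.0901% of the reads in WT replicate 1 up to 0.418% in Cdc42-/- replicate 2. The summed level of 5 T cell markers ran the other way in the homozygous knockout, with 1589 and 1629 in WT, 1646 and 1632 in Cdc42+/-, and 1094 and 934 RPKM in Cdc42-/-. The 5 Treg markers summed to 829 and 752 in WT, 729 and 668 in Cdc42+/-, and 758 and 576 RPKM in Cdc42-/-. Within that sum Ikzf2, for the transcription factor Helios, was lower in both Cdc42-/- libraries (82.9 and 56.7 RPKM) than in the other 4 (125 to 137 RPKM), and Ctla4 was higher (202 and 201 RPKM, against 130.03 to 157 RPKM). The part of these marker levels in the results was not tested. In these bulk samples, fewer cells of a type and less RNA per cell cannot be told apart.

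**Figure D1:**
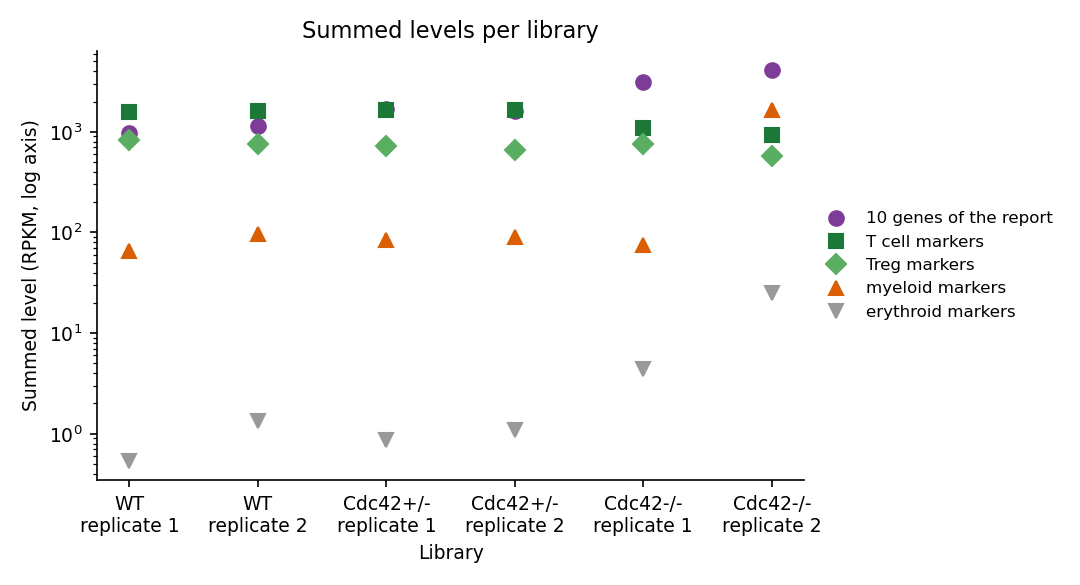
Summed level of the 10 genes and of 4 marker lists (RPKM, log axis) in each of the 6 libraries, 1 point per library and list. The 10 genes sum to 982 to 1130 in WT and 3154 to 4090 RPKM in Cdc42-/-, and the myeloid markers reach 1667 RPKM only in Cdc42-/- replicate 2.

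Among the 2 galectins, Lgals1 encodes galectin-1, a dimeric lectin that is secreted and binds glycans on T cells. It lies on the + strand at chr15:78926725-78930465 (GRCm38.p6), with a predicted gene, Gm30368, overlapping it, and 2 pseudogenes are annotated (Lgals1-ps1 and Lgals1-ps2), with which reads may be shared. Lgals1 was at 71.7 and 96.2 in WT, 178 and 178 in Cdc42+/-, and 552 and 651 RPKM in Cdc42-/-. Both Cdc42+/- libraries lay above both WT libraries, and both Cdc42-/- libraries lay above these in turn. The difference between Cdc42-/- and WT was 2.84 (SE 0.17) on the log2(RPKM + 1) scale, and Cdc42-/- replicate 1 alone was 6.57-fold above the WT mean. Without replicate 2 the difference was 2.72 (SE 0.16). Cdc42+/- exceeded WT by 1.09 (SE 0.17) on that scale.

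Lgals3 encodes galectin-3, the chimera-type galectin that forms lattices on the cell surface and is abundant in macrophages. Its gene spans chr14:47373860-47386167. Lgals3 was at 0.712 and 1.64 in WT, 4.52 and 3.82 in Cdc42+/-, and 30.3 and 97.1 RPKM in Cdc42-/-. The WT values rest on 17 and 21 reads, the Cdc42-/- values on 502 and 1330 reads. No genotype overlapped another, and the Cdc42-/- libraries differed 3.21-fold from each other, with the higher value in the library that carried the myeloid markers. The log2 difference between Cdc42-/- and WT was 4.70 (SE 0.52) with both libraries and 3.88 (SE 0.30) without Cdc42-/- replicate 2. Cdc42-/- replicate 1 was 25.8-fold above the WT mean of Lgals3. Its myeloid marker sum, 74.3 RPKM, lay within the range of the WT and Cdc42+/- libraries, but single markers did not. Of the 18, 5 were above all 4 of those libraries: Lyz2 (9.75 RPKM, against at most 7.28), Mpeg1 (2.86, at most 1.31), Itgam (1.74, at most 0.98), Csf1r (0.93, at most 0.64) and Adgre1 (0.45, at most 0.30). Another 3 were below all 4: Cybb, at 0.69 RPKM against 10.7 to 12.6, Csf3r and Ms4a6c. Their part in the Lgals3 level was not tested.

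All 4 S100 genes among the 10 lie on chromosome 3 of GRCm38.p6, on the + strand, in 2 pairs of neighbours. S100a4 (chr3:90603770-90606045) and S100a6 (chr3:90612894-90614414) are 6848 bases apart with S100a5 between them. S100a11 (chr3:93520496-93526288) and S100a10 (chr3:93555117-93564645) are 28828 bases apart with the predicted gene Gm29950 between them. A pseudogene, S100a11-ps, is annotated for S100a11, so its reads may be shared, and a GENCODE gene, Gm42674, overlaps S100a4 on the same strand. Promoters of the RefSeq table for GRCm38.p6, each from 250 bases before to 50 bases after the gene start, were found for 8 of the 10 genes, Lgals1 and S100a10 having no entry. The AP-1 motif TGANTCA was searched on both strands and matched in S100a11, where it begins 136 and 38 bases upstream of the start, and in Anxa2, where it begins 95 bases upstream. The same motif is in 7.81% of the 32851 promoters of the table. The KLF motif CCACACCC (3.56% of promoters) and the CArG box of SRF (1.63%) matched 0 of the 8. A match describes the letters only. The promoters of the S100a4 and S100a6 neighbours and of both genes with a match are shown 5′ to 3′ on the + strand, in lower case with AP-1 matches in capitals, at chr3:90603520-90603819, chr3:90612644-90612943, chr3:93520246-93520545 and chr9:69453433-69453732 in that order.
S100a4: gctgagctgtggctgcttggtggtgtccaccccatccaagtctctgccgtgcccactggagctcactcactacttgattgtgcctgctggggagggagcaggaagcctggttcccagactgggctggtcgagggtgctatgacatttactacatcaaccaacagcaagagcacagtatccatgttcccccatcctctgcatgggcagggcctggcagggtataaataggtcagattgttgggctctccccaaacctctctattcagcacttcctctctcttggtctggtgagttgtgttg
S100a6: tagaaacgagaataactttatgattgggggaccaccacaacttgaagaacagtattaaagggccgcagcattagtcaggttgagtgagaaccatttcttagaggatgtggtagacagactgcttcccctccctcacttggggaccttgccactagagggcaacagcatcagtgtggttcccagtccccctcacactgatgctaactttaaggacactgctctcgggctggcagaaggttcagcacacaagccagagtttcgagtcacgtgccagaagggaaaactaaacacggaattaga
S100a11: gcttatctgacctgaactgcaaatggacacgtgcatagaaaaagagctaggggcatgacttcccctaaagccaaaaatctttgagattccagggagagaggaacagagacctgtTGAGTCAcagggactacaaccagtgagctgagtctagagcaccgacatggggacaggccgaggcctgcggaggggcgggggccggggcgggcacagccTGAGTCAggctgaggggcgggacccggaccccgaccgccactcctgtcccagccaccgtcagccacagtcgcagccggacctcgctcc
Anxa2: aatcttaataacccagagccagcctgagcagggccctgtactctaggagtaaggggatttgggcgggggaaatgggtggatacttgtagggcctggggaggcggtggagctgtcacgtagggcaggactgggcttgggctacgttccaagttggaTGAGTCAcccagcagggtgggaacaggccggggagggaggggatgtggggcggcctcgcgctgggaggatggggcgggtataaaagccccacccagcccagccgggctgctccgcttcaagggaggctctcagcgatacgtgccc

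S100a6, also called calcyclin, was at 25.3 and 63.0 in WT, 74.7 and 78.4 in Cdc42+/-, and 203 and 277 RPKM in Cdc42-/-. The WT libraries differed 2.496-fold from each other, yet no genotype overlapped another. The log2 difference from WT was 2.54 (SE 0.40) in Cdc42-/- and 0.92 (SE 0.40) in Cdc42+/-, and Cdc42-/- replicate 1 was 4.59-fold above the WT mean (log2 2.31, SE 0.44, without replicate 2). Without WT replicate 1, the lower of the WT pair, the S100a6 differences were 1.89 (SE 0.22) and 0.28 (SE 0.22).

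S100a4, its neighbour, binds non-muscle myosin and is known from motile cells. It had another order of genotypes, with 22.3 and 38.6 in WT, 113 and 108 in Cdc42+/-, and 66.1 and 130 RPKM in Cdc42-/-. Both knockout genotypes lay above WT, but the Cdc42-/- libraries fell on either side of the Cdc42+/- libraries. The log2 difference from WT was 1.88 (SE 0.36) in Cdc42+/- and 1.63 (SE 0.36) in Cdc42-/- (1.14, SE 0.27, without replicate 2). Cdc42-/- replicate 1 was at 0.596 of the Cdc42+/- mean, a log2 difference of -0.74 (SE 0.27) without replicate 2. The AP-1 motif was not matched in either promoter of this pair.

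S100a11, which pairs with annexin A1, showed the same arrangement as S100a4. It was at 121 and 115 in WT, 239 and 227 in Cdc42+/-, and 185 and 337 RPKM in Cdc42-/-. Both knockout genotypes again lay above WT, by 0.98 (SE 0.26) in Cdc42+/- and 1.08 (SE 0.26) in Cdc42-/- on the log2 scale (0.65, SE 0.08, without Cdc42-/- replicate 2). Replicate 1 of Cdc42-/- was at 0.794 of the Cdc42+/- mean, and without replicate 2 the log2 difference between these genotypes was -0.33. That difference rests on 1 Cdc42-/- library, and the Cdc42-/- libraries differed 1.82-fold from each other.

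S100a10, the calcium-insensitive S100 protein that forms a complex with annexin A2, was the most abundant of the 10 genes in WT. Its levels were 289.9 and 324 in WT, 424 and 403 in Cdc42+/-, and 461 and 549 RPKM in Cdc42-/-. The genotypes did not overlap, but the steps were small, with log2 differences from WT of 0.43 (SE 0.13) in Cdc42+/- and 0.71 (SE 0.13) in Cdc42-/-. In Cdc42-/- replicate 1 it was 1.5-fold above the WT mean (log2 0.59, SE 0.10, without replicate 2).

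**Figure D2:**
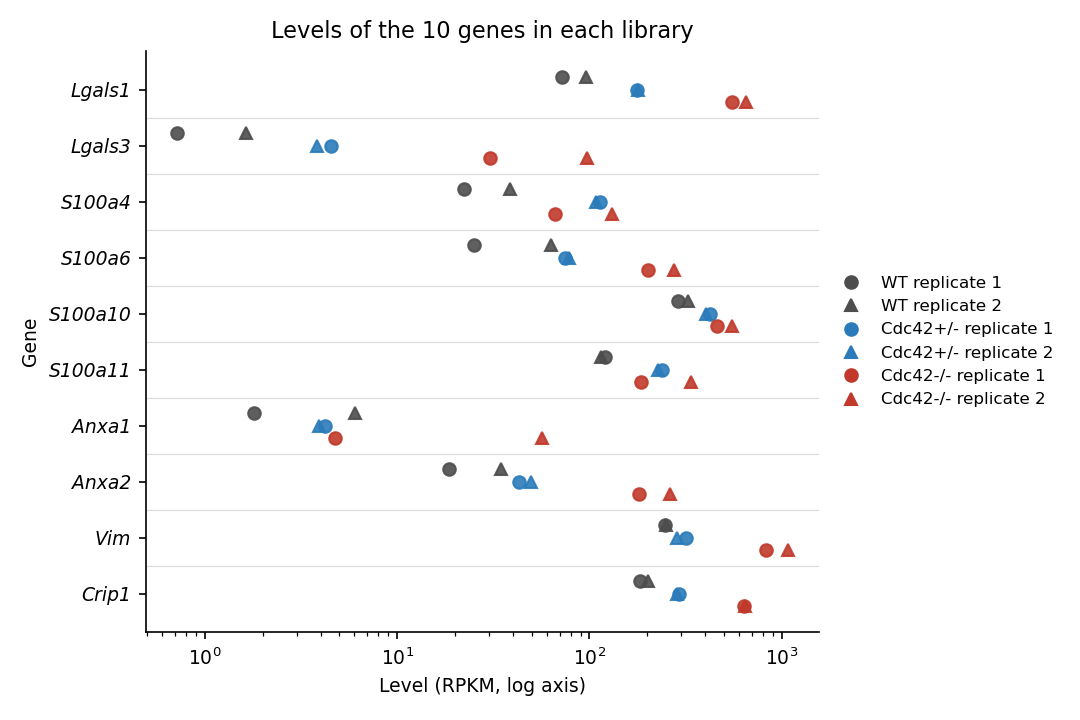
RPKM of each of the 10 genes (rows) in each library (points) on a log axis, coloured by genotype, with a circle for replicate 1 and a triangle for replicate 2. For Lgals1, Anxa2 and Crip1 the 3 genotypes are separate and in the order WT, Cdc42+/-, Cdc42-/-, while for S100a4 and S100a11 the Cdc42-/- libraries lie on either side of the Cdc42+/- libraries, and Anxa1 is high in Cdc42-/- replicate 2 only.

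The partner annexins differed from each other. Anxa2 (chr9:69453683-69491792) encodes annexin A2, a membrane and actin organiser that S100a10 binds, and its locus hosts the microRNA gene Mir3109, with Gm16144 on the other strand. It was at 18.6 and 34.8 in WT, 43.3 and 49.96 in Cdc42+/-, and 182 and 264 RPKM in Cdc42-/-. All 3 genotypes were separate, and Cdc42-/- replicate 1 was 6.81-fold above the WT mean. The log2 difference between Cdc42-/- and WT was 3.05 (SE 0.31) with both libraries and 2.79 (SE 0.31) without replicate 2. Against Cdc42+/- it was 2.21 (SE 0.31), beside 0.28 (SE 0.13) for its partner S100a10 in that comparison. Without Cdc42-/- replicate 2 these were 1.94 (SE 0.31) for Anxa2 and 0.16 (SE 0.10) for S100a10.

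Anxa1 encodes annexin A1, an anti-inflammatory ligand of formyl peptide receptors that is abundant in neutrophils and monocytes. It lies on the - strand at chr19:20373434-20390671, with 1500015L24Rik annotated on the other strand, and the strand setting of the counting is not given in the sources used here. Anxa1 was at 1.80 and 6.03 in WT, 4.20 and 3.95 in Cdc42+/-, and 4.73 and 56.8 RPKM in Cdc42-/-. Only Cdc42-/- replicate 2 was high, 12.01-fold above replicate 1, whose level lay between those of the WT libraries. The log2 difference from WT was 2.04 (SE 1.03) with both Cdc42-/- libraries and 0.37 (SE 0.49) without replicate 2.

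Vim, at chr2:13574311-13582826, was at 247 and 249.9 in WT, 317 and 284 in Cdc42+/-, and 831 and 1083 RPKM in Cdc42-/-. It was the highest of the 10 genes in Cdc42-/- and rested on the most reads, up to 18141. Its log2 difference from WT was 1.93 (SE 0.15) in Cdc42-/- and 0.27 (SE 0.15) in Cdc42+/-. Replicate 1 of Cdc42-/- was 3.34-fold above the WT mean (log2 1.74, SE 0.09, without replicate 2).

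Crip1, at chr12:113152012-113153879, was at 184 and 201 in WT, 292 and 287 in Cdc42+/-, and 639 and 647 RPKM in Cdc42-/-. It was the member on which the Cdc42-/- libraries differed least, by 1.01-fold. The log2 differences from WT were 1.74 (SE 0.10) in Cdc42-/- and 0.59 (SE 0.10) in Cdc42+/-, and 1.73 (SE 0.09) in Cdc42-/- without replicate 2.

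Because RPKM is per length, levels can also be ordered between genes. In WT the mean levels ran S100a10, Vim, Crip1, S100a11, Lgals1, S100a6, S100a4, Anxa2, Anxa1 and Lgals3, from 307 to 1.17 RPKM. Among these, S100a6 overlapped S100a4, and S100a4 overlapped Anxa2, in their library values. Cdc42+/- had S100a10 on top with 414 RPKM, and there Vim overlapped Crip1 and Lgals3 overlapped Anxa1. In Cdc42-/- the order became Vim (mean 957 RPKM), Crip1 (643), Lgals1 (601), S100a10 (505), S100a11 (261), S100a6 (240), Anxa2 (223), S100a4 (98.2), Lgals3 (63.7) and Anxa1 (30.8). Neighbours in that order overlapped between Crip1 and Lgals1, between S100a11, S100a6 and Anxa2, and between S100a4, Lgals3 and Anxa1. In Cdc42-/- replicate 1 alone the order was the same except that S100a6 (203 RPKM) stood above S100a11 (185), and Anxa1, last in both, was at 4.73 RPKM there and 56.8 RPKM in replicate 2.

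In limma's fit over the 12233 genes tested (log2(RPKM + 1), mean of at least 0.5 RPKM, Benjamini-Hochberg adjusted p under 0.05), 8 of the 10 were called higher in Cdc42-/- than in WT, where 6.86% of all genes were. S100a11 and Anxa1 were not called, none of the 10 was called lower, and 4.57% of all genes were called lower. The genes had been chosen on these values, so nothing is read from such counts. Their median log2 difference was 1.98, beside 0.01 over all genes tested. Both Cdc42-/- libraries lay above both WT libraries in 9 of the 10, Anxa1 being the exception, and in 28.9% of all genes. Cdc42-/- replicate 1 on its own lay above both WT libraries for the same 9, and for 40.2% of all genes. With replicate 2 left out of the fit, 9 of the 10 were called higher, where 9.89% of all genes were called higher and 8.61% lower. Without WT replicate 1 there were 5 (Lgals1, S100a6, Anxa2, Vim and Crip1), and the calls of S100a4 and S100a10 were also lost without WT replicate 2 and without either Cdc42+/- library. Calls over all genes fell in those fits too, to 1.58% higher and 0.54% lower without WT replicate 1, 1.6% and 0.54% without WT replicate 2, 3.11% and 1.36% without Cdc42+/- replicate 1, and 3.13% and 1.37% without Cdc42+/- replicate 2. Without Cdc42-/- replicate 1 they rose to 20.8% higher and 15.4% lower.

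Against Cdc42+/-, 5 of the 10 were called higher in Cdc42-/-: Lgals1, Lgals3, Anxa2, Vim and Crip1. Over all genes 4.68% were called higher and 3.54% lower. Both Cdc42-/- libraries exceeded both Cdc42+/- libraries for 8 genes, the exceptions being S100a4 and S100a11, and for 28.6% of all genes. Without replicate 2 the same number, 5, were called higher and S100a11 was called lower, against 7.28% higher and 7.6% lower over all genes. In that fit, which compares libraries alike in Xist, the log2 differences were 1.63 for Lgals1, 2.60 for Lgals3, 1.94 for Anxa2, 1.47 for Vim and 1.14 for Crip1. The count was 0 without either Cdc42+/- library, where 0% of all genes were called, and the median log2 difference of the 10 was then 1.66 and 1.62, beside 1.64 with all libraries. Without Cdc42-/- replicate 1 it was 9, where 19.3% of all genes were called higher and 15.5% lower.

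Between Cdc42+/- and WT, limma called 0 of the 10 genes, and 0% of all genes in either direction. At an unadjusted p under 0.05 there were 7 of the 10 and 529 of all 12233 genes, and voom on recovered reads also called 0 of the 10. Both Cdc42+/- libraries lay above both WT libraries for 9 of the 10, again without Anxa1, and for 26.2% of all genes. The median log2 difference of the 10 was 0.88, beside 0.03 over all genes. Without WT replicate 1 the median was 0.47, beside 0.05, and 4 of the 10 and 623 of all genes had an unadjusted p under 0.05. Leaving out Cdc42-/- replicate 1 or 2, whose spread enters the shared error, gave 4 called genes in each case: Lgals1, S100a4, S100a11 and Crip1. Over all genes the calls then rose from 0% to 0.482% higher and 0.139% lower without replicate 1, and to 0.417% and 0.123% without replicate 2.

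**Figure D3:**
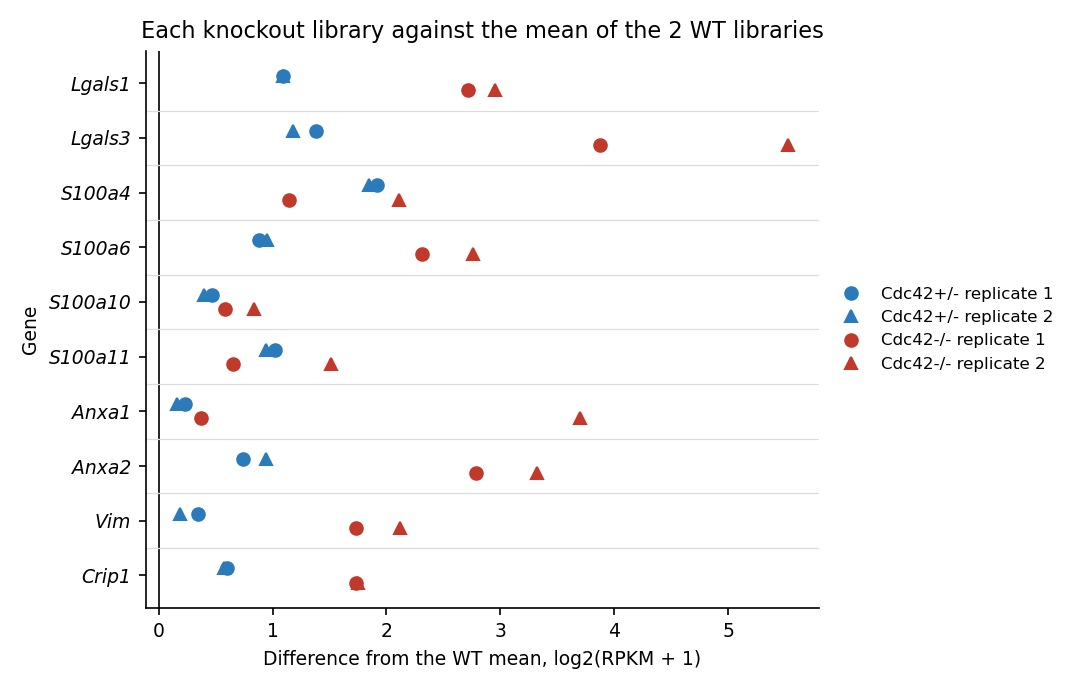
Difference of each Cdc42+/- and Cdc42-/- library from the mean of the 2 WT libraries on the log2(RPKM + 1) scale (x axis) for each gene (rows), 1 point per library. Cdc42-/- replicate 1 is above the WT mean by 2.72 for Lgals1, 3.88 for Lgals3 and 2.79 for Anxa2 but by 0.37 for Anxa1, where replicate 2 is at 3.70.

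Replicates also differed in a direction shared by the 10 genes. In Cdc42-/-, replicate 2 exceeded replicate 1 for 10 of the 10, and for 53.8% of all genes, by between 1.01-fold (Crip1) and 12.01-fold (Anxa1). In WT, replicate 2 exceeded replicate 1 for 9 of the 10, S100a11 being the exception, and for 44.5% of all genes, by up to 3.35-fold (Anxa1). The WT libraries also differed in depth, with 15911812 and 8556576 reads. Around the mean profile of the 10, the members closest to it were S100a6 (root mean square distance 0.28 log2 units over 6 libraries), Lgals1 (0.31), Vim (0.32) and Crip1 (0.34). Lgals3 (1.11) and Anxa1 (0.80) were the farthest.

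By the same measure, the 6 other genes whose pattern was most like the mean profile, out of 8199 with a mean of at least 5 RPKM, were Kpna2 (distance 0.14), Hmgb2 (0.15), Ckap2 (0.16), Kif20a (0.18), Ehd4 (0.19) and Incenp (0.20). Kpna2, an importin, was at 24.2 and 31.1 in WT, 49.5 and 41.8 in Cdc42+/-, and 94.2 and 142 RPKM in Cdc42-/-. The chromatin protein gene Hmgb2 was at 30.1 and 38.9, 72.5 and 61.8, and 152 and 269.6 RPKM in the same order. Neither gene overlapped between genotypes. Ckap2, Kif20a and Incenp encode proteins of the mitotic spindle and cytokinesis, and Ehd4 encodes an endocytic ATPase. This likeness is a description over 6 libraries.

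The authors' deposited tables, which compare each knockout genotype with WT by an unnamed test, gave an adjusted p under 0.05 to 10 of the 10 genes for Cdc42-/-, all higher, with 6% of the 14608 genes higher at that level. For Cdc42+/- the authors' deposited table gave 7 of the 10, all but S100a6, Anxa1 and Vim, with 1.72% of all genes higher. The authors' deposited fold changes in Cdc42-/- ran from 1.59 for S100a10 to 53.8 for Lgals3, and the fold for Anxa1 was 7.54. In Cdc42+/- the largest in the authors' deposited table were 3.64 for S100a4 and 3.61 for Lgals3.

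The rest of these families, their binding partners and related filament genes made 6 lists of 67 symbols, of which 55 were in the table and 47 were tested. Against WT, limma called 13 of the 47 higher and 1 lower in Cdc42-/- (all genes, 6.86% and 4.57%), with a median log2 difference of 0.54 beside 0.01 over all genes. Among the 13 is Lgals7, which passed the filter of 0.5 mean RPKM only through the Cdc42-/- libraries. Without Cdc42-/- replicate 2 the counts were 14 higher and 1 lower (all genes, 9.89% and 8.61%), and the median was 0.16. Each of the 14 genes called with all libraries was also called, in the same direction, without that library. The number called in both directions was 3 without either WT library, 6 without either Cdc42+/- library and 36 without Cdc42-/- replicate 1, and calls over the whole table moved the same way (higher in 1.58% and 1.6%, 3.11% and 3.13%, and 20.8% of all genes). Lmna, Lmnb1 and Havcr2 were called with any 1 library left out. Spn, Gcnt1 and Ahnak were not called without either WT library (largest limma adjusted p 0.086, 0.070 and 0.079). The other 8 called genes were not called without any one of the WT and Cdc42+/- libraries, with adjusted p of up to 0.229 for Csrp1. For Cdc42+/- against WT, limma called 0 of the 47, with 3 at an unadjusted p under 0.05 (529 of all 12233 genes), and voom called 0. Without either Cdc42-/- library 1 of the 47 was called and 13 had an unadjusted p under 0.05, while the number over all genes rose to 1310 and 1311.

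Of 6 other galectins tested, 1 was called higher: Lgals7, known from stratified epithelium, was at 0.421 and 0 in WT, 0.655 and 0.470 in Cdc42+/-, and 4.85 and 17.1 RPKM in Cdc42-/- (log2 difference 3.11, SE 0.53, limma adjusted p 0.018). Lgals7 passed the filter of 0.5 mean RPKM only through the Cdc42-/- libraries, where it is high, so nothing is read from its call. Its WT values rest on 4 and 0 reads, and its call was lost under 7 of 14 alternatives. Lgals9, the most abundant of the other galectins, was not called, with 91.8 and 87.3 in WT and 79.8 and 133 RPKM in Cdc42-/-. Lgals8 was at 18.2 and 17.3 in WT and 16.5 and 12.9 RPKM in Cdc42-/-. The median log2 difference of the 6 was -0.28. Without Cdc42-/- replicate 2 the count was again 1, where 9.89% of all genes were called higher, against 6.86% with all libraries.

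Of 6 other S100 genes tested, 1 rose, S100a13, which takes part in the release of growth factors that lack a signal peptide. Its levels were 29.1 and 33.5 in WT, 36.3 and 38.7 in Cdc42+/-, and 44.9 and 47.0 RPKM in Cdc42-/- (log2 difference 0.54, SE 0.11, limma adjusted p 0.035). S100a8 and S100a9, the calprotectin subunits of neutrophils and monocytes, belong to the myeloid list as well. S100a8 was at 238 RPKM in Cdc42-/- replicate 2 and at 5.93 to 20.6 RPKM in the other 5 libraries, and S100a9 was at 119 RPKM against 2.18 to 14.1 RPKM. Without that library 1 of the 6 was called as well, beside 9.89% of all genes called higher (6.86% with all libraries), and the S100a13 call was lost under 8 of 15 alternatives.

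Of 7 other annexins tested, 1 rose: Anxa6, a membrane-traffic annexin, at 188 and 177 in WT, 215 and 223 in Cdc42+/-, and 375 and 299 RPKM in Cdc42-/- (log2 difference 0.87, SE 0.14, limma adjusted p 0.013). It was the most abundant annexin of the table in WT, and of the Cdc42-/- pair replicate 1 was the higher. Anxa5 (36.0 and 35.2 in WT, 37.1 and 50.5 RPKM in Cdc42-/-) and Anxa11 (51.0 and 52.3, then 55.2 and 59.9 RPKM) were not called. The count was 1 of 7 with all libraries and without Cdc42-/- replicate 2, beside 6.86% and 9.89% of all genes.

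Among the LIM-domain, lamin and filament genes, 5 of 7 tested rose in Cdc42-/- against WT, and 5 without Cdc42-/- replicate 2, where 6.86% and 9.89% of all genes were called higher. Lmnb1, which encodes lamin B1 of the nuclear lamina, was at 25.3 and 24.2 in WT, 39.1 and 37.7 in Cdc42+/-, and 112 and 152 RPKM in Cdc42-/- (log2 difference 2.35, SE 0.16, limma adjusted p 0.0014). Lmna, for the A-type lamins, was at 2.13 and 4.02 in WT, 4.48 and 3.27 in Cdc42+/-, and 18.0 and 17.9 RPKM in Cdc42-/- (2.26, SE 0.26, adjusted p 0.0054). Both were also higher than in Cdc42+/-, with log2 differences of 1.74 and 1.97 (limma adjusted p 0.0081 and 0.014), and both calls against WT held under 15 of 15 alternatives. Plec, for plectin, which ties vimentin filaments to other structures, was at 36.2 and 32.7 in WT, 42.5 and 44.5 in Cdc42+/-, and 74.3 and 54.4 RPKM in Cdc42-/- (limma adjusted p 0.025). Crip2 and Csrp1, relatives of Crip1, rose by 1.37 (SE 0.28) and 0.56 (SE 0.13) in log2, with limma adjusted p of 0.031 and 0.040. The calls of Crip2 and Csrp1 were lost under 7 and 8 of 15 alternatives.

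Among 13 galectin ligands and glycan enzymes, 4 rose and 1 fell in Cdc42-/- against WT, beside 6.86% of all genes higher and 4.57% lower. Without Cdc42-/- replicate 2 the counts were also 4 and 1, beside 9.89% and 8.61%. Havcr2, for the galectin-9 receptor Tim-3, was at 0 and 0.943 in WT, 1.44 and 0.845 in Cdc42+/-, and 13.05 and 20.1 RPKM in Cdc42-/- (log2 difference 3.63, SE 0.39, limma adjusted p 0.0041). Gcnt1, which branches the O-glycans that galectin-1 binds, was at 1.04 and 0.915 in WT, 2.59 and 2.27 in Cdc42+/-, and 8.37 and 17.8 RPKM in Cdc42-/- (2.75, SE 0.34, adjusted p 0.0063). St6gal1, which caps galactose with sialic acid and so blocks galectin-1 binding, was at 59.3 and 53.0 in WT, 62.3 and 65.3 in Cdc42+/-, and 39.1 and 31.0 RPKM in Cdc42-/- (-0.67, SE 0.14, adjusted p 0.033). The sialomucin gene Spn (CD43) rose by 0.80 (SE 0.11, limma adjusted p 0.0082), and Cd7 rose by 1.18 (SE 0.27, limma adjusted p 0.041). The Cd7 call was lost under 9 of 15 alternatives, upper-quartile scaling, voom and array weights among them. Ptprc (CD45), Cd2 and Lgals3bp were not called, with log2 differences of -0.10, 0.02 and -0.02.

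Of 8 other S100 and annexin partners and receptors tested, 1 rose, Ahnak, a giant scaffold protein that the S100a10 and annexin A2 complex binds. It was at 48.2 and 41.6 in WT, 74.1 and 66.5 in Cdc42+/-, and 84.7 and 83.7 RPKM in Cdc42-/- (log2 difference 0.90, SE 0.12, limma adjusted p 0.0075). Myh9, the myosin that S100a4 binds, was at 329.6 and 299.8 in WT and 291 and 247 RPKM in Cdc42-/- and was not called. The annexin A1 receptor gene Fpr2 was at 20.95 RPKM in Cdc42-/- replicate 2, and its highest level elsewhere was 0.533 RPKM. Without that library 2 of the 8 were called, Ahnak and Ager, the latter with 5.98 and 4.52 in WT, 4.24 and 6.60 in Cdc42+/-, and 23.2 and 7.52 RPKM in the Cdc42-/- libraries. The shares of all genes called higher were 6.86% with all libraries and 9.89% without that one. Against Cdc42+/-, limma called 7 of the 47 genes: Lgals7, Anxa6, Lmna, Lmnb1, Havcr2 and Gcnt1 higher and St6gal1 lower. Lgals7 passed the filter on mean RPKM only through the Cdc42-/- libraries, so nothing is read from its call. Over all genes 4.68% were called higher and 3.54% lower. The calls of Lgals7 and Anxa6 were lost under 9 of 14 and 9 of 15 alternatives, the replicate block included. The 7 became 3 without either WT library (1.32% and 1.39% of all genes higher, 0.809% and 0.883% lower) and 0 without either Cdc42+/- library (0% of all genes). They became 31 without Cdc42-/- replicate 1 (19.3% higher and 15.5% lower) and 11 without Cdc42-/- replicate 2 (7.28% and 7.6%).

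**Figure D4:**
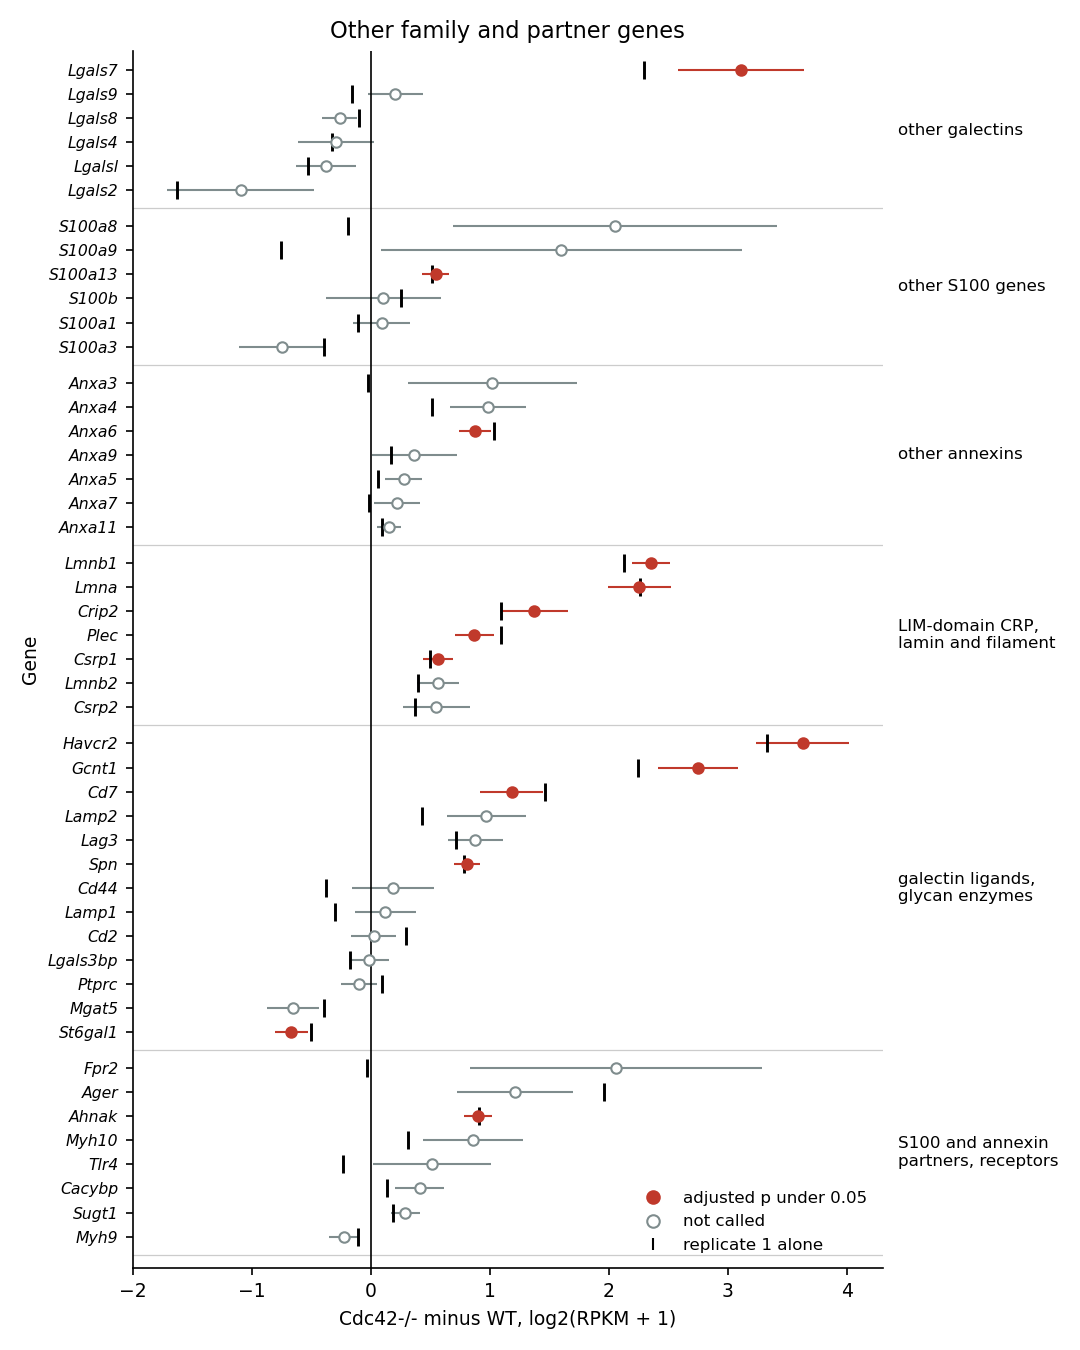
Difference between Cdc42-/- and WT on the log2(RPKM + 1) scale (x axis) for the 47 other family and partner genes tested, grouped by list, with bars of 1 SE and filled points for an adjusted p under 0.05. Upright ticks give Cdc42-/- replicate 1 alone: they lie near the points for Lmna, Spn and Ahnak and near 0 for Fpr2, Anxa3 and S100a8, whose bars are wide.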

How the data were processed

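Splenic CD4+YFP+ Treg cells of mice were profiled by RNA-seq in 3 genotypes, 2 libraries each. Per the submitters' processing notes, reads were aligned with TopHat to genome build mm10; the counting tool, strand setting and test are not given in the sources used here. The authors deposited 2 tables (Cdc42+/- against WT and Cdc42-/- against WT). Their library columns hold RPKM made by the authors, a unit inferred from the numbers because the headers name none. The tables also hold a mean signal per group, deposited as size-factor-scaled reads, with the authors' fold change, its deposited log2 value, and the authors' p-value and adjusted p-value. Columns of unknown sample numbered 0. Whole reads were recovered from RPKM and group means, with 100% of values whole within 0.05, giving 8556576 to 17796100 reads per library.

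limma 3.58.1 in R 4.3.3 (eBayes with a trend) was fitted to log2(RPKM + 1) over all 6 libraries for the 12233 genes averaging 0.5 RPKM or more, with Benjamini-Hochberg adjustment at 0.05. Differences on this scale understate the change of low genes. SEs are those of limma after moderation, and p-values measure the spread between mice within a genotype. The fit was tested on simulated data, where false calls ran above the nominal rate, mostly at genes with few reads. For this reason a filter of 50 mean reads was added as an alternative after seeing the data, beside 14 planned ones (pseudocounts, filter, scaling, voom, array weights, replicate block, fewer libraries). The 10 genes, the gene lists and the marker lists were chosen with earlier results of these data known, so their counts are set beside the share of all genes.

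Named genes were the 10, listed genes called in any comparison with a mean of at least 1 RPKM (at most 8 per list), the 6 genes nearest in pattern and the checks. Further listed genes (Lgals8, Lgals9, S100a8, S100a9, Anxa5, Anxa11, Ptprc, Cd2, Lgals3bp, Myh9, Fpr2, Ager, Ikzf2, Ctla4, and Anxa3 in a caption) were named after their values were seen. The replicate number was not used as a block, because it did not pair the libraries in every pair of genotypes. Positions and promoters come from RefSeq for GRCm38.p6, the assembly of mm10. Protein sequences were not used here.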

Additional observations from a re-analysis of the deposited data

How the results depend on the processing

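Of the 10 genes and the 14 others called in Cdc42-/- against WT, none changed direction in a comparison where it was called with all libraries, under up to 15 alternatives. Where they were not called, S100a11 in Cdc42-/- against Cdc42+/- went from 0.10 to -0.33, called lower, without Cdc42-/- replicate 2, and S100a4 from -0.25 to 0.23 without Cdc42-/- replicate 1. In Cdc42+/- against WT, Anxa1 went from 0.19 to -0.47 and Lmna from 0.29 to -0.05 without WT replicate 1, and Csrp1 from 0.10 to -0.0046 without WT replicate 2, none of them called. The count of the 10 genes called in Cdc42-/- against WT, 8, ranged from 5 to 10 with 1 library left out. For Cdc42+/- against WT, 0 became 4 with only the 2 genotypes compared (0.376% of all genes higher, 0.114% lower) and 4 with array weights (0.613% and 0.106%), and 0 to 4 with 1 library left out. For Cdc42-/- against Cdc42+/-, 5 became 0 to 9 with 1 library left out. Among the 47 other genes, the 14 calls of Cdc42-/- against WT became 6 with only the 2 genotypes compared (3.11% and 1.27% of all genes) and 3 to 36 with 1 library left out. For Cdc42+/- against WT, 0 became 1 with only the 2 genotypes compared, 2 with array weights and 0 to 1 with 1 library left out. For Cdc42-/- against Cdc42+/-, 7 became 3 with only the 2 genotypes compared (1.46% and 0.801%) and 0 to 31 with 1 library left out. Fewer libraries leave fewer residual degrees of freedom, and a group left with 1 library is assumed to vary like the others; beyond this the cause was not tested. Among single values of the 14 other genes that were called with all libraries, 95 lost their call. Among single values of the 10 genes, called or not, 42 moved by at least 1 SD between replicates. Lost calls of the 10 genes are not in these counts. Lgals3 in Cdc42-/- against WT lost its call with voom (adjusted p 0.081) and without WT replicate 1.

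Same-numbered libraries deviated together for WT with Cdc42-/- only (correlations of 0.02 for WT with Cdc42+/-, 0.20 for WT with Cdc42-/- and -0.03 for Cdc42+/- with Cdc42-/-), and not every pair passed 0.1, so they were taken to share only a number. With the replicate block, 8 of the 10 genes were called in Cdc42-/- against WT, 0 in Cdc42+/- against WT and 6 in Cdc42-/- against Cdc42+/-. The block gave 13, 0 and 5 calls among the 47 other genes, and over all genes 5.67% higher and 3.69% lower, 0%, and 3.95% and 2.66%. Depth limits Lgals3 in WT, with 17 and 21 reads, and Lgals7, with 4 and 0 reads. Reads are not independent molecules after PCR, so counting precision covers counting error only.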
